A study of Mus musculus with 8 samples.

Results

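The complement genes C1qa, C1qb, C1qc, C3, C4b, Cfb, Cfp, C3ar1 and C5ar1 were followed in sorted mast cells (MC) of tumor-bearing mice. They were chosen by name, with earlier results of these data known. A gene was measured where the array annotation gave its transcript cluster exactly 1 symbol. Of the 9 genes, 6 had such a cluster among the 24111 clusters of the value table, and each had 1 only, namely C1qa (17431619), C1qc (17431612), C4b (17343918), Cfp (17540521), C3ar1 (17470616) and C5ar1 (17486864). C1qb, C3 and Cfb were not analysed here.

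The MC came from C57BL/6J mice that carried subcutaneous tumors of Panc02, a mouse pancreatic cancer line. At a tumor volume of 100 mm3 the mice were randomized to placebo or to 40 mg/kg DC101, an antibody that blocks the VEGF receptor VEGFR2. MC were sorted from end-stage tumors and from peritoneal lavage of the tumor-bearing animals on DAPI, CD45, CD11b, CD117 (KIT) and the IgE receptor FceRI, which gave 4 groups of 2 arrays, namely tumor placebo, tumor DC101, peritoneum placebo and peritoneum DC101. The peritoneal groups are therefore cells of mice with a tumor elsewhere, and neither the age of the mice nor any pooling of animals is given in the sources used here.

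Complement is a cascade of plasma and cell-derived proteins that marks targets for uptake and lysis. C1q, built from A, B and C chains, starts the classical pathway, C4 and C3 are cleaved and attach to the target, and properdin stabilizes the convertase of the alternative pathway. C3a and C5a, the small fragments released on the way, act on the receptors C3AR1 and C5AR1 of myeloid cells and can trigger MC degranulation, and in tissues much of the C1q is made by macrophages.

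Values were log2 expression values made by RMA, which corrects background, normalizes between arrays and gives 1 value per transcript cluster. A difference of 1 is a 2-fold difference. Values of different clusters have no common scale, so differences between groups were taken within each gene. Means over marker lists and the median cluster serve only as rough guides to level. Array medians lay between 3.34 and 3.46, and the arrays of a group correlated at 0.974 to 0.986 across clusters. Each cluster was fitted with limma, with a spread shared over all 8 arrays, and the words rose, fell, higher and lower in counts of calls are kept for a Benjamini-Hochberg adjusted p under 0.05 over all clusters. The study's own thresholds, taken here as an unadjusted p under 0.05 with a difference of 1 or more in either direction, were counted beside it. No source used here tells if the arrays of a group stem from different animals, and the p-values then cover the spread of these arrays alone, which may be technical. MC markers were high on every array, with a mean log2 value over 13 markers (among them Kit, Fcer1a and Cpa3) of 9.27 to 10.1 per array. With DC101 0 of the 13 passed the test in either compartment, against 0% of all clusters in the tumor and 4.58% in the peritoneum. In the peritoneum 10 of the 13 differences were negative and 3 positive, with a median of −0.12 against −0.022 over all clusters.

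The start of each of these genes is shown as the stretch from which its transcript begins, because several of the genes were high on the same arrays. The windows hold 250 bases before and 50 bases after the annotated start in RefSeq, build GRCm38.p6, and 4 measured genes had one, each on the minus strand. They were searched on both strands for GAGGAA, a PU.1-type ETS site, for TGCTGAC, a MAF-type site, and for TGANTCA, an AP-1 site that a MAF-type site can overlap. Capitals mark the matches, and TTCCTC is GAGGAA read on the opposite strand.
C1qc, chr4:136892865-136893164: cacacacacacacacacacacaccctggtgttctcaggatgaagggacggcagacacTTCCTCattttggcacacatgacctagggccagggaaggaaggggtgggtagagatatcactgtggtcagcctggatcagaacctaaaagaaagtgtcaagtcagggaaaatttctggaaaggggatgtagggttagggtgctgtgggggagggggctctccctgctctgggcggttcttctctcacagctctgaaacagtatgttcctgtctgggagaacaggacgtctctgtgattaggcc
Cfp, chrX:20931506-20931805: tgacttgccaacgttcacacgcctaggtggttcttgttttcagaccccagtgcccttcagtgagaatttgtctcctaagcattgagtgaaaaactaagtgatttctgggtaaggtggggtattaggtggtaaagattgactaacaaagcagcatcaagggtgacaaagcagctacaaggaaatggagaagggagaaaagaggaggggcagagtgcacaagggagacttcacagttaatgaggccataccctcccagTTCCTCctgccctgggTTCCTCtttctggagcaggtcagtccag
C3ar1, chr6:122856108-122856407: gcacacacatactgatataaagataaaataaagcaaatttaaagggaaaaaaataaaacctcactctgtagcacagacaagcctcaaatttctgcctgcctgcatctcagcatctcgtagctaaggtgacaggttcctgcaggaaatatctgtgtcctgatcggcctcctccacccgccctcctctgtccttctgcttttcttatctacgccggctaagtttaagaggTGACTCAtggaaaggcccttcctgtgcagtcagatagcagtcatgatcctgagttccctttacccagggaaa
C5ar1, chr7:16259289-16259588: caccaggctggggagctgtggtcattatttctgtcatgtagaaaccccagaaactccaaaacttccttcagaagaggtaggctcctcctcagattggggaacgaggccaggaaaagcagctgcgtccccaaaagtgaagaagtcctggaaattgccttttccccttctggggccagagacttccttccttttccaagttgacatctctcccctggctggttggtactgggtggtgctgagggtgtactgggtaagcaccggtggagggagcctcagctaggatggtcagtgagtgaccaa

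The C1qc window held 1 match of GAGGAA and the Cfp window 2, both of the latter just after the start. The C3ar1 window held 1 match of TGANTCA, 22 bases before the start, and the C5ar1 window held none of the letters searched. Over all 32851 windows of the table, 28.3% held GAGGAA, 4.67% held TGCTGAC and 7.81% held TGANTCA. Matches of GAGGAA are thus common and those of TGCTGAC and TGANTCA less so. All of them describe the sequence only. In the same annotation, C1qc and C1qa lie side by side on chromosome 4, and C1qa and C4b had no window in the table used.

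DC101 against placebo in peritoneal MC asks how these genes responded outside the tumor. C1qa, C3ar1 and C5ar1 rose, so that 3 of the 6 measured genes passed the test, against 4.58% of all clusters in either direction and 2.48% that were higher with DC101. At the study's thresholds C4b joined them, giving 4 of 6 against 5.88% of clusters, and 5 of 6 had an unadjusted p under 0.05, against 18.9%. All 6 differences were positive, with a median of 1.06 on the log2 scale against −0.022 over all clusters. Because the genes were chosen with earlier results of these data known, these shares describe the list and are no independent test of it.

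Among the genes of the cascade, C1qa, the A chain of C1q, measured 9.71 and 9.38 on the placebo arrays and 10.48 and 10.83 on the DC101 arrays. Both DC101 arrays lay above both placebo arrays. The rise was 1.11 ± 0.26 (SE) on the log2 scale, or 2.16-fold, with a 95% interval of 0.53 to 1.69 (limma, adjusted p = 0.0458). This call was at the edge of the threshold. It was lost when any 1 of the 8 arrays was left out (adjusted p 0.0544 to 0.197) and in 12 of 15 alternative settings in all, over which the log2 difference lay between 0.93 and 1.28.

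C1qc, the C chain, measured 8.08 and 6.84 with placebo and 8.08 and 8.35 with DC101. The groups overlapped because the placebo arrays lay apart, replicate 1 at the level of the DC101 arrays and replicate 2 well below. The difference was 0.75 ± 0.36 (SE, adjusted p = 0.311), and it rested on which placebo array was kept. Without placebo replicate 1 it was 1.37 (adjusted p = 0.046), and without placebo replicate 2 it was 0.13 (adjusted p = 0.872).

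C4b, the mouse C4 that the classical and lectin pathways cleave, measured 9.40 and 9.01 with placebo and 10.14 and 10.30 with DC101. The groups did not overlap, and the difference of 1.02 ± 0.26 (SE), or 2.03-fold, did not pass the test (adjusted p = 0.0609). It passed with an intensity trend and robust prior (adjusted p = 0.0232) and after dim clusters were left out (adjusted p = 0.037). C4b has a near copy, C4a, which probes may not separate fully from it. The C4a cluster lay between 1.53 and 3.10 on the peritoneal arrays of both groups.

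Cfp encodes properdin. It measured 10.00 and 9.82 with placebo and 10.66 and 10.65 with DC101. The DC101 arrays lay above the placebo arrays and almost on top of each other, and the difference of 0.74 ± 0.32 (SE) did not pass the test (adjusted p = 0.244).

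The anaphylatoxin receptors had the larger differences. C3ar1, the receptor for C3a, measured 7.81 and 7.20 with placebo and 9.18 and 9.92 with DC101. Both DC101 arrays were clearly above the placebo arrays, and the rise was 2.05 ± 0.36 (SE), or 4.13-fold (adjusted p = 0.0167). Over all clusters, 0.767% had a difference of at least this size in this comparison.

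C5ar1, the receptor for C5a, measured 6.79 and 6.32 with placebo and 7.88 and 8.30 with DC101. The groups were again apart, with a rise of 1.54 ± 0.27 (SE), or 2.90-fold (adjusted p = 0.015). The calls of both receptors were lost without placebo replicate 2, where C3ar1 differed by 1.74 (adjusted p = 0.107) and C5ar1 by 1.30 (adjusted p = 0.0943). They were also lost without DC101 replicate 2, where C3ar1 differed by 1.67 (adjusted p = 0.0829) and C5ar1 by 1.33 (adjusted p = 0.0739), and without moderation of the variances.

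**Figure D1:**
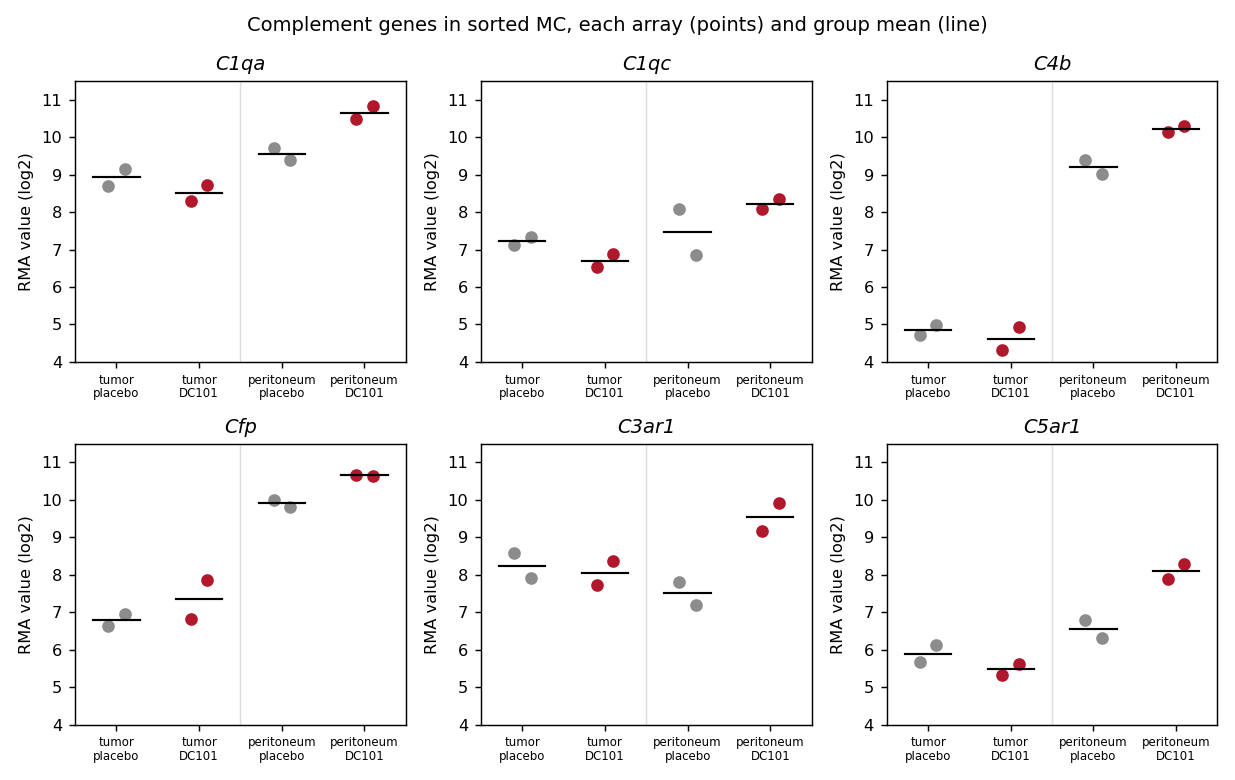
RMA log2 value (vertical axis) of the 6 measured complement genes on each of the 8 arrays, with placebo in grey, DC101 in red and the mean of each group as a line. C1qa, C3ar1 and C5ar1 reach their highest values on the DC101 arrays of the peritoneum, and C4b and Cfp are high on all 4 peritoneal arrays.

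In tumor MC, 0 of the 6 genes changed with DC101, as did 0% of all clusters after adjustment (limma). At the study's thresholds 0 of 6 were counted, against 0.68% of clusters, and 0 of 6 had an unadjusted p under 0.05, as 5.04% of all clusters had. Here 5 of the 6 differences were negative, with a median of −0.32 against −0.029 over all clusters.

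C1qa measured 8.71 and 9.15 on the placebo arrays of the tumor and 8.29 and 8.71 on the DC101 arrays, so the groups overlapped narrowly, and the difference was −0.43 ± 0.26 (SE) with a 95% interval of −1.01 to 0.15. C1qc measured 7.12 and 7.33 with placebo and 6.52 and 6.87 with DC101, with a difference of −0.53 ± 0.36 (SE) and an interval of −1.35 to 0.29. Both DC101 arrays lay below both placebo arrays for C1qc, yet the interval spans 0. Leaving out 1 array moved the difference between −0.65 and −0.21 for C1qa and between −0.70 and −0.35 for C1qc.

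C5ar1 measured 5.67 and 6.13 with placebo and 5.34 and 5.62 with DC101, and differed by −0.42 ± 0.27 (SE, interval −1.02 to 0.18). Its groups were apart too, by a narrow margin, and the difference lay between −0.65 and −0.19 when 1 array was left out. C3ar1 measured 8.58 and 7.90 with placebo and 7.72 and 8.36 with DC101, which overlapped, and its difference of −0.20 ± 0.36 (SE) turned positive when replicate 1 of either group was left out (0.14 without that of placebo, 0.12 without that of DC101).

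C4b stood at 4.71 and 4.99 with placebo and 4.32 and 4.92 with DC101, and its difference of −0.23 ± 0.26 (SE) became 0.070 without DC101 replicate 1. Cfp was the exception in sign, with 6.64 and 6.95 with placebo, 6.82 and 7.86 with DC101, and a difference of 0.55 ± 0.32 (SE) that came mostly from DC101 replicate 2. Without that array the difference was 0.027, and without DC101 replicate 1 it was 1.07.

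The difference between the compartments in the response to DC101 was tested directly. After adjustment 0 of the 6 genes passed, against 0.805% of clusters, while at the study's thresholds 5 of 6 were counted, against 7.39%, and 5 of 6 had an unadjusted p under 0.05, against 13.1%. C5ar1 came closest, with a peritoneal response 1.95 ± 0.38 (SE) higher than its tumor response (adjusted p = 0.0581). C3ar1 followed with 2.24 ± 0.51 (SE, adjusted p = 0.0934) and C1qa with 1.54 ± 0.36 (SE, adjusted p = 0.1).

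C4b differed by 1.25 ± 0.36 (SE, adjusted p = 0.176) and C1qc by 1.28 ± 0.51 (SE, adjusted p = 0.329), which became 0.66 without peritoneal placebo replicate 2. Cfp had the smallest value, with a difference of 0.20 ± 0.45 (SE, adjusted p = 0.906) and a 95% interval of −0.81 to 1.21. With an intensity trend and robust prior 2 of the 6 passed, C5ar1 (adjusted p = 0.0203) and C1qa (adjusted p = 0.0234), and after dim clusters were left out C5ar1 alone passed (adjusted p = 0.0391).

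**Figure D2:**
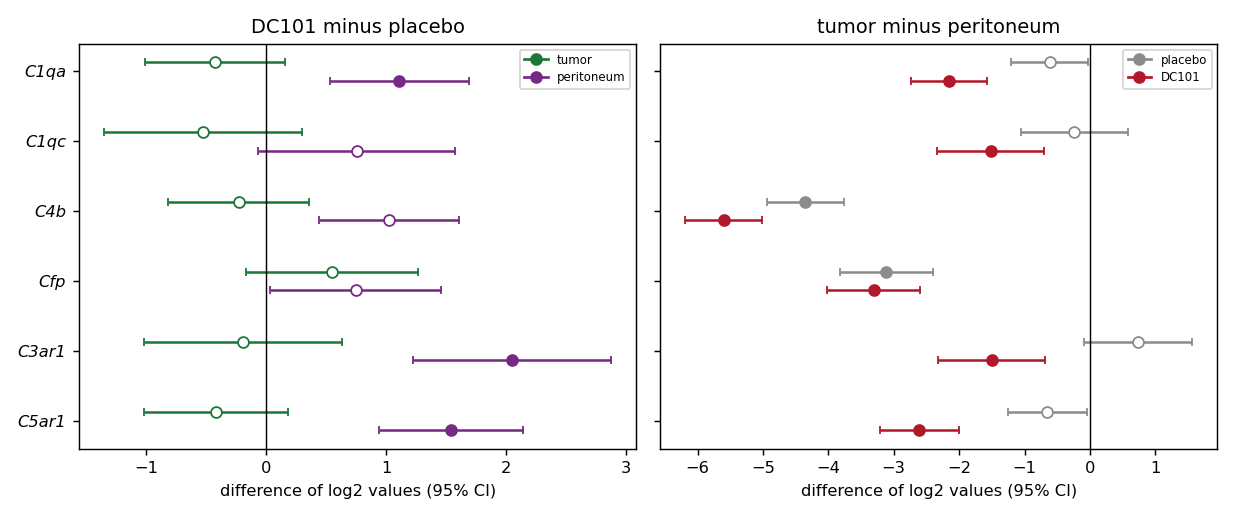
Differences of log2 values (horizontal axes) with 95% confidence intervals for the 6 genes, DC101 minus placebo on the left (tumor in green, peritoneum in purple) and tumor minus peritoneum on the right (placebo in grey, DC101 in red), with filled points where the adjusted p was under 0.05. On the left the filled points are C1qa, C3ar1 and C5ar1 in the peritoneum, and on the right all 6 are filled for the DC101 arrays and C4b and Cfp for placebo.

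Tumor MC were then compared with peritoneal MC. On the placebo arrays C4b and Cfp were lower in tumor MC, which made 2 of 6 genes, against 19.6% of clusters that differed and 8.29% that were lower. C4b was 20.4-fold lower, at 4.71 and 4.99 in tumor MC against 9.40 and 9.01 in peritoneal MC (log2 difference −4.35 ± 0.26 SE, adjusted p = 7.17e-06). Only 0.68% of clusters differed by as much.

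Cfp was 8.65-fold lower (−3.11 ± 0.32 SE, adjusted p = 0.000156). C1qa (−0.62 ± 0.26 SE, adjusted p = 0.139) and C5ar1 (−0.65 ± 0.27 SE, adjusted p = 0.13) lay below their peritoneal values on both arrays without passing the test, with ranges of −0.84 to −0.40 and −0.89 to −0.42 when 1 array was left out. C1qc overlapped, with −0.24 ± 0.36 (SE), and this became 0.38 without peritoneal placebo replicate 1 and −0.86 without replicate 2.

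C3ar1 had the opposite order, since both tumor placebo arrays (8.58 and 7.90) lay above both peritoneal placebo arrays (7.81 and 7.20). The difference of 0.74 ± 0.36 (SE) did not pass the test (adjusted p = 0.214) and lay between 0.40 and 1.07 when 1 array was left out.

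On the DC101 arrays all 6 genes were lower in tumor MC, against 21.9% of clusters that differed and 9.54% that were lower. The peritoneal DC101 arrays also serve in the comparison with placebo, so the values of the comparisons are not independent. The log2 difference was −5.60 ± 0.26 (SE) for C4b, which is 48.5-fold (adjusted p = 2.17e-06), and −3.31 ± 0.32 (SE) for Cfp, which is 9.92-fold (adjusted p = 9.48e-05). C4b and Cfp were thus the genes with the largest gap between compartments under both treatments.

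C5ar1 was 6.10-fold lower (−2.61 ± 0.27 SE, adjusted p = 0.000141) and C1qa 4.46-fold lower (−2.16 ± 0.26 SE, adjusted p = 0.000348). C1qc was 2.87-fold lower (−1.52 ± 0.36 SE, adjusted p = 0.0154) and C3ar1 2.84-fold lower (−1.50 ± 0.36 SE, adjusted p = 0.0163). The calls of C1qc and C3ar1 were lost in 3 settings each. Without tumor DC101 replicate 1 the adjusted p was 0.11 for C1qc (log2 difference −1.34) and 0.131 for C3ar1 (−1.19), and without peritoneal DC101 replicate 2 it was 0.0818 (−1.38) and 0.105 (−1.13). Without moderation of the variances it was 0.131 for C1qc and 0.134 for C3ar1.

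The order of the 4 groups separated the genes. Peritoneal DC101 had the highest mean for every measured gene, at 10.66 ± 0.25 (SD, n = 2) for C1qa, 10.22 ± 0.12 for C4b and 8.09 ± 0.29 for C5ar1. The share of all clusters with this group on top, or with such gaps between groups, is not given here. The orders therefore describe these genes only. For C1qa, C4b and Cfp peritoneal placebo came next, apart from the groups above and below it, and the 2 tumor groups overlapped. C5ar1 had the same order with no overlap anywhere. For C1qc peritoneal placebo overlapped with peritoneal DC101 above it and with tumor placebo below it, and tumor DC101 lay apart.

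C3ar1 departed from this, with peritoneal placebo at the bottom (7.50 ± 0.43, SD, n = 2) and tumor placebo (8.24 ± 0.48) and tumor DC101 (8.04 ± 0.45) between. Its neighbours below peritoneal DC101 overlapped in turn. Over the 8 arrays, which hold only 4 groups of 2, C1qa followed C5ar1 most closely (Pearson r = 0.9948) and C4b followed Cfp (0.9836), while C3ar1 was least like C4b (0.3749) and Cfp (0.3802).

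Among 10259 clusters of 1 symbol that varied by at least 1 on the log2 scale, those most like the mean of C1qa and C1qc were Cdc42se1 (r = 0.9865), Stx7 (0.9817), Fam219aos (0.9801), Rnf144b (0.9777) and Abhd12 (0.9774). C4b was most like Man1a (0.9969), Ednrb (0.9962) and Apbb1ip (0.9959), and Cfp most like Zfp467 (0.9964), Gna15 (0.994) and Treml2 (0.9928). C3ar1 was most like Mcur1 (0.9792), Nr3c1, the glucocorticoid receptor (0.9762), and Magea3 (0.9726). C5ar1 was most like Cyp26a1, an enzyme that degrades retinoic acid (0.9887), Cdc42se1 (0.9878) and Stxbp6 (0.9877). All these correlations are over the same 8 arrays, and most of their spread is the spread between the 4 groups. Some of these clusters were dim, with group means below the median cluster at 3.48. Magea3 was so in every group (1.14 to 2.13) and Cyp26a1 in all but peritoneal DC101 (2.32 to 3.27). Fam219aos was so in both tumor groups (2.80 with placebo, 2.61 with DC101) and Treml2 in tumor placebo (3.16).

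Of 47 other complement genes listed, 39 had a cluster. With DC101 in peritoneal MC 1 rose, against 2.48% of all clusters, 1 fell, against 2.1%, and 37 did not pass the test, so the shares were near those of all clusters. The median difference was −0.031, also close to that of all clusters. Most of the 39 had a mean over all arrays below the median cluster, unlike the measured genes of the main list. This limits what few calls can show, and the lists are not alike in level. Fcna, ficolin A, which recognizes sugars and starts the lectin pathway, measured 9.13 and 8.75 with placebo and 10.29 and 10.63 with DC101, a rise of 1.52 ± 0.23 (SE, adjusted p = 0.00895). Cr2, the receptor for C3d on B cells, measured 4.63 and 4.58 with placebo and 3.23 and 3.01 with DC101, a fall of 1.48 ± 0.20 (SE, adjusted p = 0.00577). Its DC101 values lie below the median cluster at 3.48, so the size of this fall is uncertain.

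Neither gene overlapped between the groups. In tumor MC 0 of the 39 changed with DC101, and in the test of the difference between compartments 0 of 39 passed, with 5 of 39 at an unadjusted p under 0.05, a share near the 13.1% of all clusters. The 9 measured members of the group of other complement receptors included Itgam and Itgb2, the chains of complement receptor 3, which differed by 0.31 ± 0.23 (SE, adjusted p = 0.53) and 0.37 ± 0.21 (SE, adjusted p = 0.401) in the peritoneum. C5ar2, the second receptor for C5a, differed there by 0.36 ± 0.21 (SE, adjusted p = 0.424), against the rise of 1.54 of C5ar1.

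Between compartments the other complement genes went both ways. On the placebo arrays 3 of 39 were higher and 8 lower in tumor MC, against 11.3% and 8.29% of all clusters, and on the DC101 arrays 3 were higher and 9 lower, against 12.4% and 9.54%. The receptors Vsig4 (also called CRIg, −6.92 on placebo and −6.19 on DC101 arrays), Itgam (−3.12 and −3.86) and Itgb2 (−1.91 and −2.23) were lower in tumor MC, as were Fcna (−5.11 and −6.29) and the regulator Cd55 (−3.29 and −2.85), which disassembles convertases and whose probes may not separate it from its copy Daf2. Cr2 was lower as well (−2.89 and −1.46), and the regulator Cd46, a cofactor for the cleavage of C3b, was lower on the DC101 arrays (−1.66 ± 0.35 SE, adjusted p = 0.00819) and differed by −0.78 on the placebo arrays (adjusted p = 0.171).

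Those higher in tumor MC were Masp1, a protease of the lectin pathway (4.36 and 4.56), Serping1, the C1 inhibitor (1.33 and 3.06), and Lrp1, an endocytic receptor (1.41 and 0.91). These 3 passed the test with both treatments. Vsig4 lay between 1.68 and 2.59 on the tumor arrays and Masp1 between 1.41 and 1.92 on the peritoneal arrays, below the median cluster at 3.48. On the tumor arrays Cr2 (1.59 to 1.84) and Cd46 (2.44 to 3.44) lay below it too. With no detection call in RMA the sizes of such differences are uncertain. The 7 genes of the terminal pathway, from Hc (C5) to C9, had 0 calls in any of the 5 comparisons. Of all clusters, 0% to 21.9% were called per comparison. At an unadjusted p under 0.05 (limma) at most 1 of the 7 was counted in a comparison, against 5.04% to 32.1% of all clusters. The means of all 7 over all arrays lay between 1.68 and 3.30, below the median cluster at 3.48. The lack of calls therefore does not show that these genes were unchanged.

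**Figure D3:**
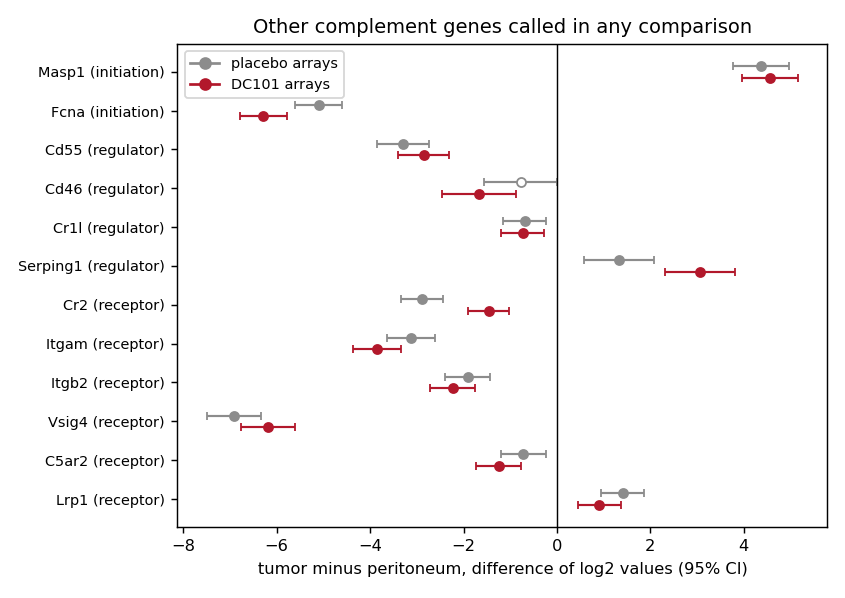
Difference of log2 values between tumor and peritoneal MC (horizontal axis, with 95% confidence intervals) for the 12 other complement genes called in any comparison, with placebo arrays in grey, DC101 arrays in red and open points where the test was not passed. Vsig4 and Fcna lie to the left and Masp1 to the right of 0 with both treatments, and the low side of Vsig4, Masp1, Cr2 and Cd46 is below the median cluster.

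Markers of other cell types were followed on the same arrays. The mean log2 value of 16 macrophage markers per array was 5.62 to 5.95 in tumor MC, 7.36 and 7.46 with placebo in the peritoneum and 8.20 and 8.59 with DC101 there, and 0 of the 16 lay below the median cluster in the peritoneal groups. With DC101 in the peritoneum 5 of the 16 rose (Lyve1, Folr2, Cd163, Mrc1 and Maf), against 2.48% of all clusters, and 2 fell (Marco and Fcgr1), against 2.1%. In tumor MC none passed the test, as 0% of all clusters did. There 12 of the 16 differences were negative. At an unadjusted p under 0.05 (limma) there were 6, against 5.04% of clusters, of which Timd4 and Lyve1 were positive. On the DC101 arrays 14 were lower in tumor MC than in peritoneal MC, against 9.54% of clusters, while Fcgr1 was higher there (2.98 ± 0.34 SE, adjusted p = 0.000291). The cells had been sorted with markers that included CD117 and FceRI, and CD11b, the product of Itgam, was part of the gate.

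Csf1r, the receptor that macrophages depend on, measured 8.85 and 8.66 with placebo and 9.52 and 10.01 with DC101 in the peritoneum (1.01 ± 0.27 SE, adjusted p = 0.0733). Folr2, a folate receptor of resident macrophages, measured 6.22 and 7.28 with placebo and 10.86 and 11.39 with DC101 (adjusted p = 0.00065). The resident peritoneal markers Timd4 and Gata6 differed by −0.52 and −0.48 with neither passing the test. The 3 clusters most like C1qa alone were Armc7 (r = 0.9918 over 8 arrays), Cd68, a lysosomal protein of macrophages (0.9894), and Atg7 (0.987). Those most like C1qc alone were Olfr578 (0.9807), Lsm10 (0.9669) and Pcmtd2 (0.9571). Of these clusters only Cd68 was on the list of macrophage markers. They were named after their values were seen.

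Eosinophil markers (5 measured) averaged 2.21 to 2.55 per array in tumor MC, 3.71 and 3.78 with placebo and 5.29 and 5.54 with DC101 in the peritoneum. There 3 of 5 rose (Siglecf, Ccr3 and Prg2), against 2.48% of all clusters, and Epx and Il5ra differed by −0.18 and 0.063. The means of Epx and Prg2 lay below the median cluster in both peritoneal groups. Neutrophil markers (7 measured) averaged 5.14 to 5.58 in tumor MC, 6.65 and 6.71 with placebo and up to 7.25 with DC101 in the peritoneum, with both DC101 arrays above both placebo arrays, although of the 7 Retnlg rose (2.08, adjusted p = 0.0234), Mpo fell (−2.02, adjusted p = 0.0032) and 5 did not pass the test. Markers of B cells (4 measured) averaged 9.11 and 9.17 with placebo and 7.79 and 8.30 with DC101 in the peritoneum, in the direction of Cr2.

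Fibroblast markers (7 measured) averaged 7.63 to 7.95 in tumor MC and 3.15 to 3.77 in the peritoneum, in the direction of Serping1 and Lrp1. This direction was not theirs alone. With both treatments 2 of 4 epithelial markers and 1 of 4 mesothelial markers were also higher in tumor MC, and 0 were lower. The shares of all clusters that were higher were 11.3% on the placebo arrays and 12.4% on the DC101 arrays. T and NK cell markers (8 measured) averaged 5.42 and 5.52 with placebo and 3.36 and 3.80 with DC101 in the peritoneum. With DC101 in the peritoneum 5 of the 8 T and NK cell markers fell, against 2.1% of all clusters. So did 1 of 5 dendritic cell, 1 of 4 B cell, 1 of 7 fibroblast and 1 of 4 mesothelial markers. Of the 4 epithelial markers 0 changed there, against 4.58% of all clusters. The part of these cell types in the values of the complement genes was not tested, and in such bulk samples more cells of a type and more RNA per cell cannot be told apart.

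**Figure D4:**
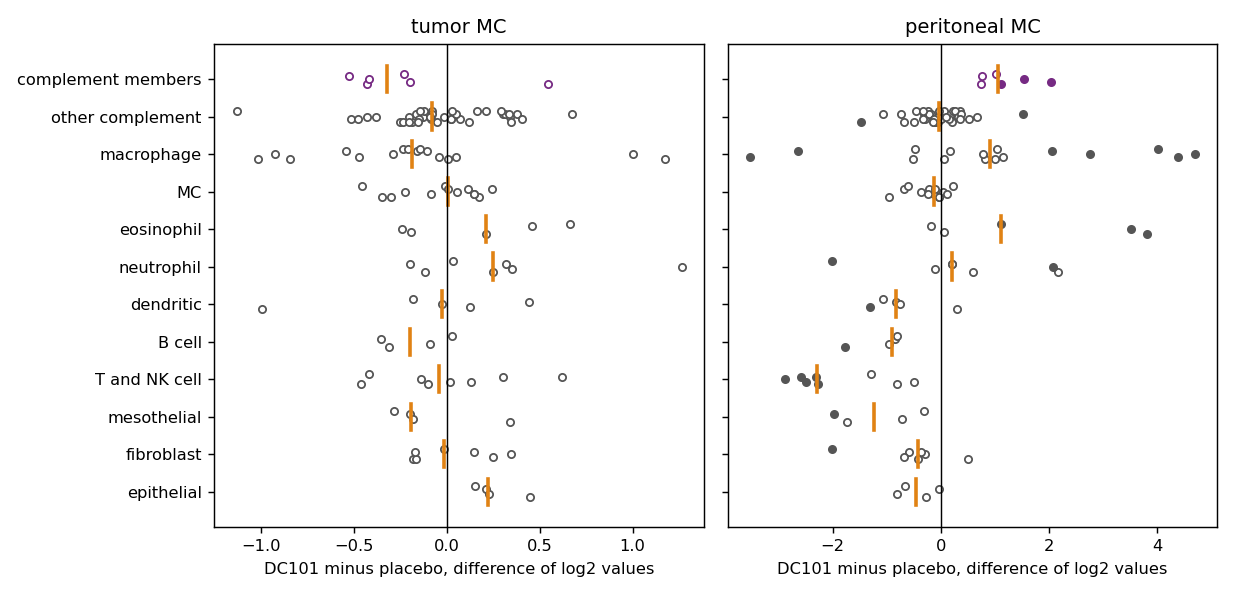
Difference of log2 values between DC101 and placebo (horizontal axes, on different ranges) for each gene of the complement group, the other complement genes and the lists of cell type markers, in tumor MC on the left and peritoneal MC on the right, with filled points where the adjusted p was under 0.05 and the list's median as an orange line. In the tumor no point is filled, and in the peritoneum the complement genes and the macrophage and eosinophil markers have medians of 1.06, 0.91 and 1.11.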

How the data were processed

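The authors measured RNA of sorted MC on single-colour Mouse Gene 2.1 arrays, processed the image files with R and Bioconductor packages and deposited log2 values per transcript cluster, which the submitters' processing notes say were made with RMA, with options and genome build not given in the sources used here. Of the 24111 clusters, 21508 had 1 symbol in the platform annotation, 566 had several and 2037 had none, and the 8 value columns were assigned to groups by the sample labels. RMA gives no detection call, and quantile normalization removes changes that all genes share.

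From the deposited log2 values, 1 mean per group was fitted for all clusters with limma 3.58.1 in R 4.3.3 (4 residual and 4.93 prior degrees of freedom), with p-values adjusted over all clusters for each of 5 comparisons. The test is two-sided and was tested on simulated data. The study names an F-test at p of 0.05 and a logFC of 1, and whether p was adjusted is not given in the sources used here. The array number, 2 per group, limits the precision.

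Members and lists were chosen with earlier results of these data known. Named genes are all members, other complement genes that passed the test (the 6 with the largest difference in each direction and comparison), the 5 clusters most like the mean of the C1q genes and the 3 most like each other member, among clusters with a range of at least 1. Genes outside this rule, such as single markers, C4a and C5ar2, were named after their values were seen. Promoter windows came from RefSeq (GRCm38.p6), were matched by symbol (6 of 9 genes, of which 4 had values) and are not tied to the arrays' build. Alternatives were no moderation, a trend and robust prior, cyclic loess, leaving out dim clusters, array weights, the compared groups alone, a replicate block, leaving out each array and the study's thresholds. Plots used matplotlib 3.10.9 (Python 3.11.15).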

Additional observations from a re-analysis of the deposited data

Results flagged for a closer look

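The C5ar1 arrays of DC101 and placebo were apart in opposite directions in tumor and peritoneum. Both tumor DC101 arrays (5.34 and 5.62) lay below both placebo arrays (5.67 and 6.13). Both peritoneal DC101 arrays (7.88 and 8.30) lay above both placebo arrays (6.79 and 6.32). In tumor MC the margin was narrow, and the difference of −0.42 ± 0.27 (SE, confidence interval −1.02 to 0.18) did not pass the test. A fall of C5ar1 in tumor MC is therefore not shown. How many other clusters had the same opposite order is not given here. The peritoneal response was 1.95 ± 0.38 (SE) higher than the tumor response on the log2 scale, which did not pass the test of the difference (limma, adjusted p = 0.0581).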

How the results depend on the processing

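Among the values of single genes under the alternatives, 415 kept their direction and their side of the threshold, 24 lost a call, 6 gained one and 5 changed sign. In the peritoneum the 3 DC101 calls became 0 without moderation and 0 to 3 when 1 array was left out, with 0 without peritoneal placebo replicate 2 and 0 without peritoneal DC101 replicate 2. For the difference between compartments the count of 0 became 2 with a trend and robust prior, 1 without dim clusters and 5 at the study's thresholds. The other counts stayed within 1.5 times.

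Sign changes came when 1 array was left out, for DC101 in tumor MC from −0.53 to 0.14 for C3ar1 and −0.53 to 0.070 for C4b, for the difference between compartments from −0.32 to 0.72 for Cfp, and for tumor against peritoneal placebo from −0.86 to 0.38 for C1qc. None of these passed the test in either direction, and the cause was not tested.

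With the replicate number as a block the calls numbered 0 (tumor DC101), 2 (peritoneum DC101, with C1qa at adjusted p = 0.0577), 0 (difference), 2 (placebo compartments) and 6 (DC101 compartments). Same-numbered arrays deviated together at correlations of −0.165 to 0.0172, so the numbers were not taken as pairs, and the crossed numbering of the tumor arrays, added after the data were seen, called 0 of 6. A second cluster per gene could not be tried, since each gene had 1. RMA gives no detection limit, so low values have no bound.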
